A study of Rattus norvegicus with 6 samples.

Results

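A group of 9 genes of leukocyte signalling was examined in the renal cortex of rats given phenolphthalein (a pH indicator and former laxative) and of rats given its corn oil vehicle. The group holds the tyrosine kinases Fgr, Lyn and Syk, the transcription factor Spi1 (PU.1), the phosphatase Ptprc (CD45), the integrin chains Itgam (CD11b) and Itgb2 (CD18), and the membrane proteins Laptm5 and Cd53. They are 9 of 15284 named genes with a probe on the array. The genes were chosen by name with their difference between the treatment groups already known, so that difference is described below and carries no test. All probes whose RefSeq accession names one of the 9 genes were used, 17 in all.

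The animals were male Sprague-Dawley (Crl:CD(SD)) rats, bought at 5 weeks of age and kept on a basal diet. Both groups were dosed over 4 weeks, 3 rats with corn oil alone and 3 rats with phenolphthalein at 1000 mg/kg/day. The labels name no transgene, engineered allele or other agent. RNA from the renal cortex of each rat was labelled with Cy3 and hybridised to 1 Agilent array, so n = 3 in each group. The labels number the rats 1 to 3 within each group, and those numbers are used below.

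Immune cells in the kidney cortex are mainly resident macrophages and dendritic cells, with fewer lymphocytes. In these cells an activated receptor is phosphorylated by Src-family kinases such as Lyn and Fgr. The phosphorylated motif then recruits Syk, which passes the signal on to phospholipase C and to the cytoskeleton. CD45 sets the activity of Src-family kinases by removing phosphate from their regulatory tail. Beta-2 integrins, in which the Itgb2 chain pairs with Itgam or a related alpha chain, hold leukocytes to vessel walls and to opsonised particles and signal through the same kinases. PU.1 is the transcription factor that sets the macrophage programme and binds purine-rich sites around a GAGGAA core.

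The promoters show which of the genes carry that core next to their start site. RefSeq windows on the GRCr8 build, from 250 bases before to 50 bases after the start, were at hand for 6 of the 9 genes. They were those of Fgr, Syk, Ptprc, Itgam, Laptm5 and Cd53. GAGGAAG, a 7-base form of the core that contains GAGGAA, was found on either strand in 3 of these 6 windows, and in 12.4% of 33465 promoters of the same length. GAGGAA was found in 5 of 6, against 27.6% of all promoters, and every window with GAGGAAG is counted here too. TATAAA was found in 1 of 6, that of Laptm5, against 14.2% of all. In Cd53 the GAGGAAG match lay on the strand opposite to the gene, from base -45 to base -39 relative to the start, and in Laptm5 on the opposite strand from -64 to -58. Itgam held one on the gene's own strand from -151 to -145 and one on the opposite strand from -40 to -34. Syk and Ptprc held GAGGAA alone, from -62 to -57 and from -163 to -158. The Fgr window held neither form. Windows of Cd53, Laptm5 and Itgam are shown because they hold GAGGAAG, and that of Fgr because Fgr had the lowest difference of the 9 genes. The letters run 5′ to 3′ along the gene's own strand, and capitals mark GAGGAAG or its reverse complement. The regions are chr2:197087847-197088146 on the minus strand, chr5:148371630-148371929 and chr1:192089342-192089641 on the plus strand, and chr5:150473547-150473846 on the plus strand. Such a match is a run of letters and says nothing of binding in these rats.
Cd53 promoter: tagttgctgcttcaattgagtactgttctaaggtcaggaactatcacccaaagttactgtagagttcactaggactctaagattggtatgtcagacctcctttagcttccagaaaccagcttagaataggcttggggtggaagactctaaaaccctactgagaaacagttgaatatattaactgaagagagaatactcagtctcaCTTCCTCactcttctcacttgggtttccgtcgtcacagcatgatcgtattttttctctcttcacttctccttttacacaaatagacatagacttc
Laptm5 promoter: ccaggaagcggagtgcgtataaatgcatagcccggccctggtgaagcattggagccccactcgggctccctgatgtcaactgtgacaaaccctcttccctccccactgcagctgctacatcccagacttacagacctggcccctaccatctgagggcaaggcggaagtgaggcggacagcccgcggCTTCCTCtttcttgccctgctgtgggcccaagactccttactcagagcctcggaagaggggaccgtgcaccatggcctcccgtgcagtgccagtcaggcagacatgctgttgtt
Itgam promoter: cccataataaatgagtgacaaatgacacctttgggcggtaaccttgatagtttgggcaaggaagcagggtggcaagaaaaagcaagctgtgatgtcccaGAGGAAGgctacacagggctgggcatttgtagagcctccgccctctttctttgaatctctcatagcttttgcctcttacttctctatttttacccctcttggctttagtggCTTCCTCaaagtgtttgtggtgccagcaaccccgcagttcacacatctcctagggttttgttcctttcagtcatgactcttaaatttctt
Fgr promoter: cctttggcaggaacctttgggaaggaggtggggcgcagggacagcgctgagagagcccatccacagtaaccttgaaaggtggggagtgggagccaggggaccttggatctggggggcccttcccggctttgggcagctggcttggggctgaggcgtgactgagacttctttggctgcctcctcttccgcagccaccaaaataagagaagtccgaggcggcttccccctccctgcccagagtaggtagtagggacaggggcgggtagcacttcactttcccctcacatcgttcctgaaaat

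The arrays carried 61657 probes besides controls, of which 64.8% to 72.1% were well above background per array. Correlations between arrays lay between 0.987 and 0.992 across tested probes. The markers of renal tubules and glomeruli that had a probe, 19 in all, were tested, and Lrp2, Slc34a1 and Umod had mean levels over 6 log2 units above the 75th percentile in both groups. One slide carried the whole vehicle group, another carried phenolphthalein replicate 1 alone, and a further one carried phenolphthalein replicates 2 and 3, each slide with its own scan day. The vehicle group and its slide therefore cannot be told apart in any value below.

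Levels are log2 intensities relative to the 75th percentile of the same array, so 0 is that percentile and 1 unit is a doubling. Differences are the phenolphthalein mean minus the vehicle mean, with the standard error (SE) of a limma fit across all 34417 tested items. The level of a probe depends on its sequence, so levels of different genes are not set against each other. In a tissue extract, fewer leukocytes and less RNA per leukocyte cannot be told apart.

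Of the 9 genes, 8 had a lower mean with phenolphthalein and 1, Itgam, had a higher one. The median difference was -0.37, against -0.02 over all tested items, of which 54.2% had a lower mean. In 4 genes, Fgr, Spi1, Ptprc and Cd53, every phenolphthalein rat lay below every vehicle rat. Over all items 9.11% were lower without overlap and 6.59% higher without overlap. With limma and Benjamini-Hochberg adjustment, 0 of the 9 genes passed an adjusted p of 0.05 and 0% of all items did so in either direction. At an unadjusted limma p under 0.05, 5 of the 9 were lower, against 4.96% of all items lower and 3.91% higher. Since the genes were chosen with this contrast known, these shares describe the choice and support nothing.

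**Figure D1:**
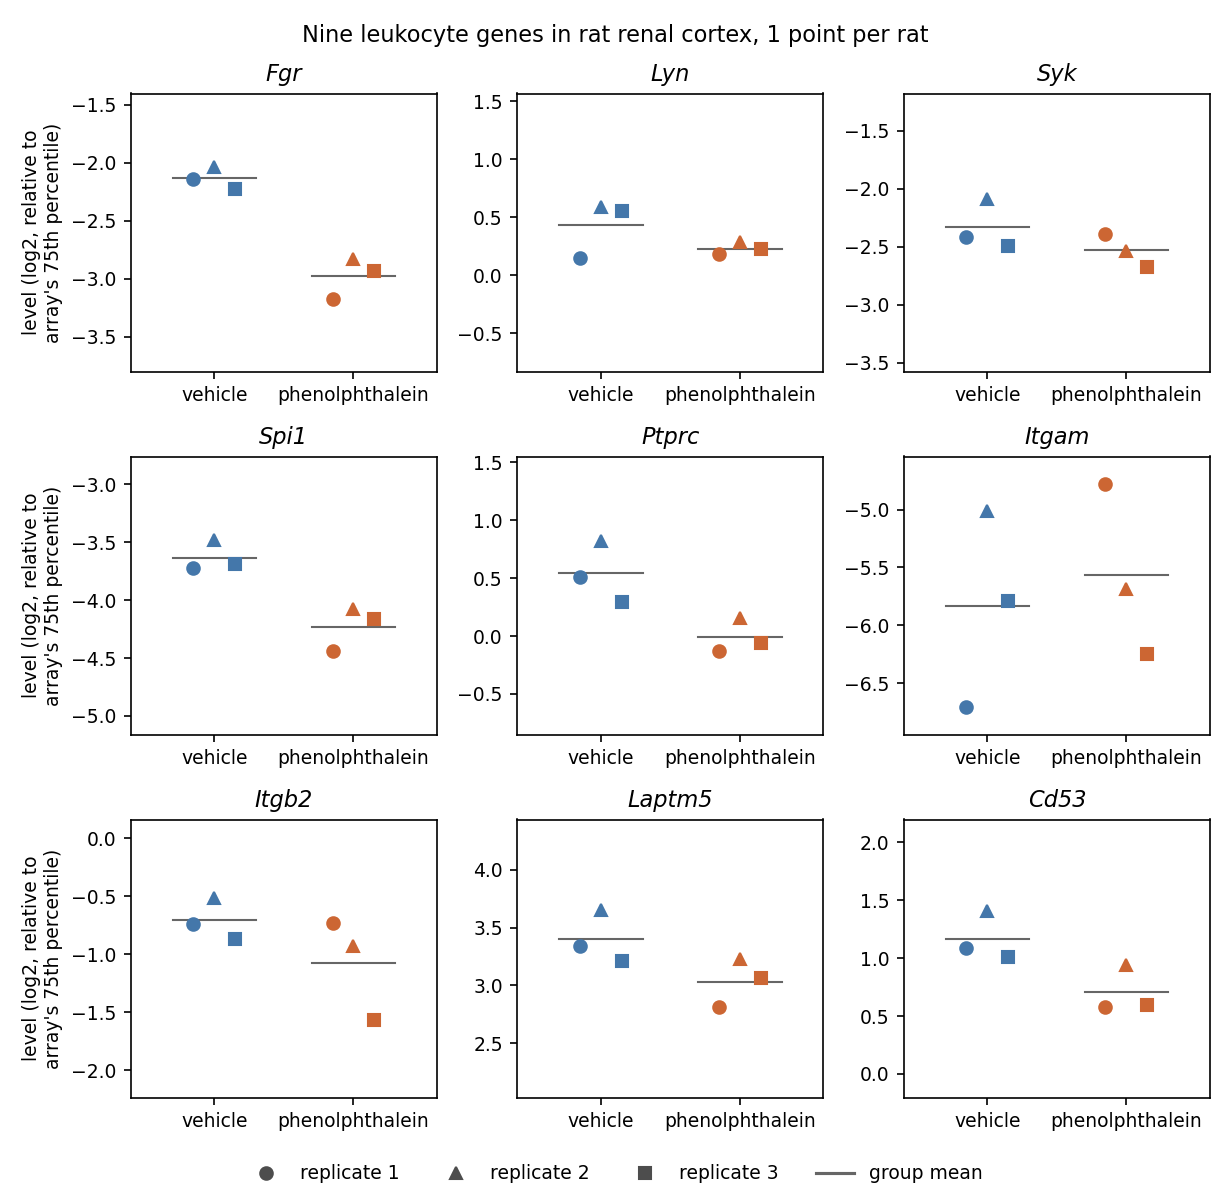
Level of each of the 9 genes in each rat (log2, relative to the array's 75th percentile), with 1 panel per gene, vehicle in blue, phenolphthalein in orange and the group mean as a line. Every panel spans the same number of log2 units. Fgr, Spi1, Ptprc and Cd53 have groups that do not overlap, and the Itgam points are spread over the panel in both groups.

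Fgr, a Src-family kinase of monocytes, macrophages and neutrophils, had the lowest difference of the 9. Its level was -2.14, -2.03 and -2.22 in the vehicle rats and -3.17, -2.83 and -2.94 in the phenolphthalein rats, in the order of the replicates. The groups were 0.61 log2 units apart at their nearest points, and phenolphthalein replicate 1 was the lowest. The group means of Fgr, vehicle first, were -2.13 ± 0.10 and -2.98 ± 0.17 (SD, n = 3 each). They differed by -0.85 (log2, SE 0.12), or 1.80-fold lower with phenolphthalein. Leaving out each array in turn gave differences from -0.92 to -0.75.

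Lyn, the Src-family kinase of macrophages and B cells that both starts and restrains receptor signals, lay closer between the groups. Its brightest probe read 0.15, 0.58 and 0.56 in vehicle and 0.18, 0.28 and 0.22 with the drug. The first vehicle rat lay below every phenolphthalein rat, so the groups overlapped. The log2 difference was -0.20 (SE 0.13). It was -0.34 without vehicle replicate 1 and -0.12 without vehicle replicate 2. Lyn has 3 probes, all with a lower mean. The second read -2.58, -2.14 and -2.15 in vehicle and -2.59, -2.17 and -2.58 in phenolphthalein, again with overlap. The dimmest, above background on 5 of 6 arrays, read -4.95, -4.80 and -5.07 against -6.14, -5.38 and -5.35, without overlap and with a log2 difference of -0.68 (SE 0.27).

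Syk, the kinase that docks on phosphorylated receptor motifs, differed little between the groups. It stood at -2.42, -2.08 and -2.49 in vehicle and at -2.39, -2.53 and -2.67 in phenolphthalein. The groups overlapped, with vehicle replicate 2 the highest array. The log2 difference was -0.20 (SE 0.14), which became -0.08 without vehicle replicate 2 and -0.13 without phenolphthalein replicate 3. Its second tested probe had a difference of the opposite sign, 0.14 (SE 0.22). The median of both probes gave -0.03. A further Syk probe was not well above background on any array. The direction for Syk thus depends on the probe.

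Spi1, which encodes PU.1, was measured by 1 probe. The vehicle rats read -3.73, -3.49 and -3.69 and the phenolphthalein rats -4.44, -4.08 and -4.17. All vehicle values lay above all phenolphthalein values, with a gap of 0.35. The Spi1 means, vehicle first, were -3.63 ± 0.13 and -4.23 ± 0.19 (SD, n = 3 each). They differed by -0.59 (log2, SE 0.16), or 1.51-fold lower. The probe is dim, with background-subtracted intensities of 48.5 to 91.3, and under normexp background correction with its offset the difference was -0.30.

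Ptprc encodes CD45, a phosphatase on the surface of all nucleated blood cells, and had 5 probes. The brightest read 0.51, 0.82 and 0.30 in vehicle and -0.13, 0.16 and -0.06 with phenolphthalein. The groups did not overlap, and vehicle replicate 3 and phenolphthalein replicate 2 were their nearest members. The CD45 means, vehicle first, were 0.54 ± 0.27 and -0.01 ± 0.15 (SD, n = 3 each). They differed by -0.55 (log2, SE 0.15), or 1.47-fold lower. All 5 probes had a lower mean, with log2 differences from -0.55 to -0.28, and 4 of the 5 had groups that did not overlap. These probes measure the same gene in the same RNA and are not replicates. The exception read -3.65, -3.40 and -3.81 in vehicle and -3.65, -4.03 and -4.03 in phenolphthalein.

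Itgam, the CD11b chain that marks monocytes and neutrophils, was near the limit of detection. Its only probe was well above background on 2 of 3 arrays in each group, with background-subtracted intensities of 9.45 to 38.3. It read -6.71, -5.01 and -5.79 in vehicle and -4.78, -5.69 and -6.24 in phenolphthalein. The highest and the lowest array belonged to different groups, phenolphthalein replicate 1 and vehicle replicate 1, and the groups overlapped over most of their range. The log2 difference was 0.27 (SE 0.54) and its direction turned without vehicle replicate 1 (-0.17) and without phenolphthalein replicate 1 (-0.13). No direction can be given for Itgam.

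Itgb2, the beta chain shared by all beta-2 integrins, read -0.74, -0.51 and -0.86 in vehicle and -0.73, -0.93 and -1.56 in phenolphthalein. Phenolphthalein replicate 1 lay inside the vehicle range, phenolphthalein replicate 2 just below it and phenolphthalein replicate 3 far below it. The log2 difference was -0.37 (SE 0.22), and without phenolphthalein replicate 3 it was -0.13. It was -0.54 without phenolphthalein replicate 1 and -0.44 without phenolphthalein replicate 2. The size of the Itgb2 difference thus rests largely on phenolphthalein replicate 3 and also depends on phenolphthalein replicate 1.

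Laptm5 and Cd53 are membrane proteins of blood cells, the former in lysosomes and the latter a tetraspanin of the cell surface. Laptm5 read 3.34, 3.65 and 3.21 in vehicle and 2.81, 3.22 and 3.07 with the drug. The third vehicle rat lay just under phenolphthalein replicate 2, which made the groups overlap. The log2 difference was -0.37 (SE 0.14), or 1.29-fold lower, and -0.24 without vehicle replicate 2. Cd53 read 1.08, 1.41 and 1.01 in vehicle and 0.58, 0.94 and 0.60 in phenolphthalein. Its groups did not overlap, by a margin of 0.07. The log2 difference was -0.46 (SE 0.14), or 1.38-fold lower.

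**Figure D2:**
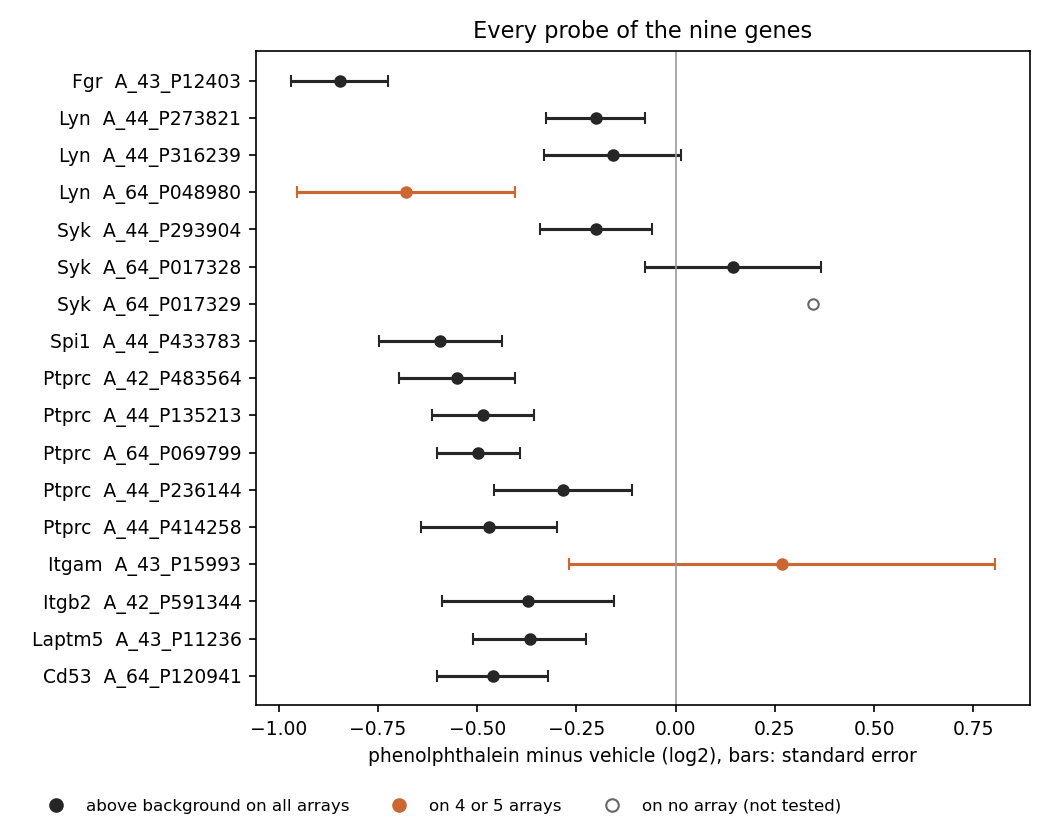
Difference between the groups (phenolphthalein minus vehicle, log2) for each of the 17 probes of the 9 genes, with the limma SE as bars. Of the 16 tested probes 14 lie below 0, and those above 0 are 1 probe each of Syk and Itgam. Orange points were above background on 4 or 5 arrays, and the open point, a Syk probe above background on none, has no SE.

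Within the vehicle group the 9 genes were highest in the same rat, whereas within the phenolphthalein group they split. Among the vehicle rats, replicate 2 had the highest level in 9 of the 9 genes, whereas 28.3% of all tested items were highest there and 40% lowest. That array also had the smallest share of probes well above background (64.8%), and the part of this in the pattern was not tested. Among the phenolphthalein rats, replicate 2 was highest in 6 of 9 (30.1% of items) and replicate 1 was lowest in 6 of 9 (39.3% of items). The other 3 genes, Syk, Itgam and Itgb2, were highest in replicate 1 (34.2% of items) and lowest in replicate 3 (28.4% of items). The genes are measured in the same RNA, so these counts are no independent observations. Relative to each gene's vehicle mean, the mean over the 9 genes was -0.17, 0.27 and -0.10 in vehicle and -0.33, -0.26 and -0.52 with the drug. The nearest rats across the groups were vehicle replicate 1 and phenolphthalein replicate 2. Without Itgam, the gene near the limit of detection, the means were -0.08, 0.20 and -0.12 in vehicle. With the drug they were -0.50, -0.31 and -0.53, and the vehicle rat nearest to phenolphthalein replicate 2 was then replicate 3. Without vehicle replicate 2 the median difference of the 9 genes was -0.28. Within the phenolphthalein group, the rat on its own slide lay below the mean of the pair on the other slide in 6 of 9 genes, with a median of -0.17, against 52.8% of items and a median of -0.02.

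Most markers of macrophages and T cells had lower means as well, and their part in the result was not tested. Of 13 listed macrophage markers 11 were tested, 10 of them with a lower mean, and Adgre1, Cd68 and the C1q chains were above background on all arrays. The exception was Mrc1, the mannose receptor, which read -2.11, -2.22 and -2.90 in vehicle and -1.06, -1.38 and -1.50 with the drug, a difference of 1.097 (log2, SE 0.23) without overlap. The list's mean relative to vehicle ranged from -0.09 to 0.15 in vehicle and from -0.52 to -0.17 in phenolphthalein. Cd163, a scavenger receptor of macrophages, was below that limit in every vehicle rat and was not tested, and Ms4a7 was not analysed here. Of 11 T cell markers 10 were tested and 10 had a lower mean, with ranges of -0.25 to 0.38 and of -0.68 to -0.41. Vehicle replicate 2 was the highest vehicle array in 8 of the 11 macrophage markers and in 9 of the 10 T cell markers.

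Fewer markers of B cells and neutrophils could be tested. Of 10 B cell markers 5 were tested, with ranges of -0.18 to 0.21 in vehicle and of -0.58 to 0.06 in phenolphthalein. Of 11 neutrophil markers 6 were tested, all above background on 6 arrays, 4 of them with a lower mean and 2 with a higher one. Their ranges were -0.24 to 0.29 and -0.48 to 0.14. Retnlg and Mmp9, a resistin-like protein and a gelatinase of neutrophils, differed by -0.78 (SE 0.21) and -0.68 (SE 0.19), both without overlap. Elane, the neutrophil elastase, was not well above background on any array, and neither was Blk, a B cell kinase of the Src family. The neutrophil markers Ngp and Mmp8 were well above background on 1 array at most and Cxcr2 on 2 at most, so they were not tested. The neutrophil granule genes S100a8 and S100a9 had higher means with phenolphthalein, by 0.41 (SE 0.43) and 0.37 (SE 0.44), with overlapping groups. Most listed macrophage markers and 6 of the 11 neutrophil markers were thus measured in the tissue, while Itgam was near background. Ptprc, Laptm5, Cd53, Itgb2 and Lyn are made by lymphocytes as well. Kidney cell markers were not level either. Of 6 markers of the loop and distal nephron 5 were tested, 4 with a lower mean, and the list ranged from -0.09 to 0.06 in vehicle and from -0.33 to -0.03 in phenolphthalein. At its brightest probe Slc12a3, the salt transporter of the distal tubule, differed by -0.39 (SE 0.05, limma adjusted p = 0.357), without overlap. Of its 3 tested probes 2 had a higher mean, so the direction for Slc12a3 depends on the probe. Aqp2, the water channel of the collecting duct, differed by -0.58 (SE 0.20), without overlap. Proximal tubule markers had 5 of 7 lower means, with ranges of -0.02 to 0.01 and of -0.18 to -0.00015. Glomerular and endothelial markers had 2 of 7 lower means, with ranges of -0.11 to 0.07 and of -0.03 to 0.16. Liver markers, which vary between these arrays, ranged from -0.51 to 0.58 in vehicle and from 0.03 to 1.45 in phenolphthalein and were highest in phenolphthalein replicate 2. The part of these kidney and liver markers in the result was not tested.

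**Figure D3:**
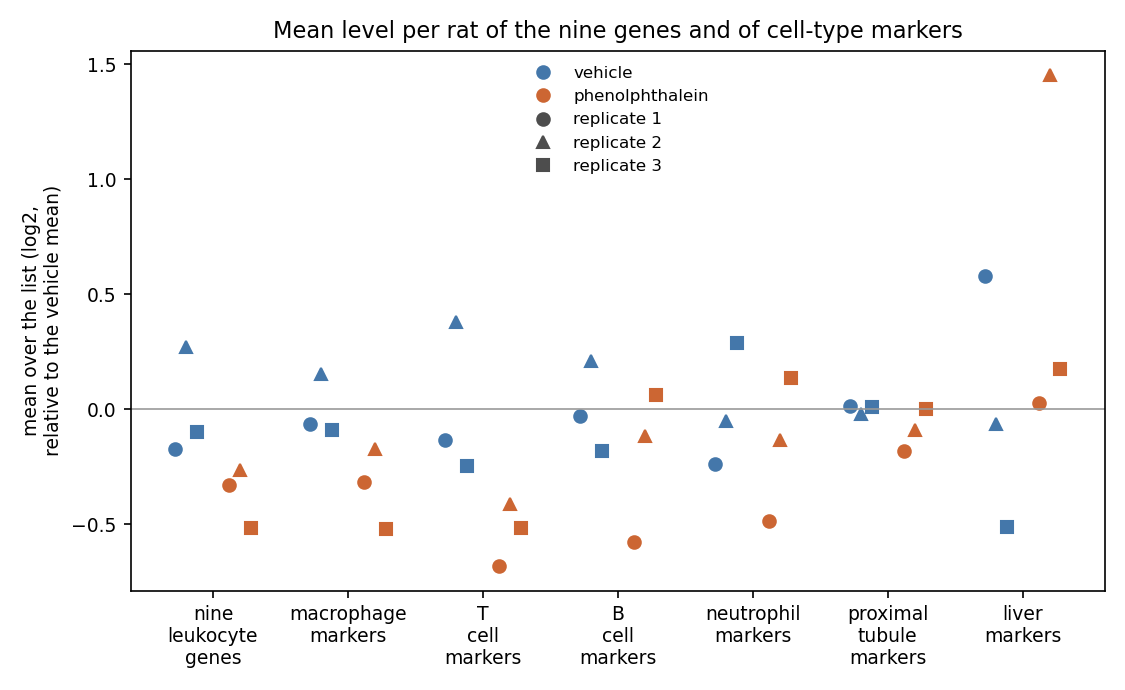
Mean over the 9 genes and over each list of cell-type markers in each rat (log2, relative to the vehicle mean of each gene), vehicle in blue and phenolphthalein in orange, with the marker shape giving the replicate. Vehicle replicate 2 is the highest point for the 9 genes and for macrophage, T cell and B cell markers, proximal tubule markers lie between -0.18 and 0.01, and the liver markers peak at 1.45 in phenolphthalein replicate 2.

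Other genes of the same pathways were taken from 7 lists, named by function and family and drawn up with earlier results of these data known. Of 99 listed genes 86 were tested. In all 67 had a lower and 19 a higher mean, with a median difference of -0.19 against -0.02 over all items. With limma and adjustment over all items, 0 passed in either direction, where 0% of all items passed. At an unadjusted limma p under 0.05, 25 of the 86 were lower and 0 higher, against 4.96% and 3.91% of all items.

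Among the other Src-family kinases, 5 of 6 were tested and 2 had a lower mean. Lck, the kinase of T cells, differed by -0.23 (SE 0.23). The broadly expressed Yes1 and Fyn differed by 0.09 (SE 0.11) and 0.01 (SE 0.12). The median of the 5 was near 0 (0.0010), and its sign turned under several settings.

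Receptors and adaptors around Syk had lower means in 17 of 19 genes, with a median of -0.27 and 7 of 19 lower and 0 higher at an unadjusted limma p under 0.05 (4.96% and 3.91% of all items). Tyrobp and Fcer1g, the adaptor chains whose phosphorylated motifs recruit Syk, differed by -0.49 (SE 0.10) and -0.65 (SE 0.17). The IgG receptor Fcgr3a differed by -0.73 (SE 0.17) and Lcp2, the scaffold SLP-76 downstream of Syk, by -0.76 (SE 0.16). These 4 genes, named for the smallest p of the list, had groups without overlap, and their limma adjusted p lay between 0.434 and 0.459. Over the list 8 of 19 genes were lower and 0 higher without overlap (9.11% and 6.59% of all items). The list median was -0.43 without phenolphthalein replicate 3 and -0.20 without phenolphthalein replicate 1. It was -0.19 both under normexp and as the median of probes.

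Integrin partners had lower means in 12 of 15 tested genes, with a median of -0.13 and 3 of 15 lower at an unadjusted limma p under 0.05 (4.96% of all items). Itgal, the alpha chain that pairs with Itgb2 on lymphocytes, stood at -3.97 ± 0.33 and -4.73 ± 0.09 (SD, n = 3 each) and differed by -0.76 (log2, SE 0.20). Fermt3 (kindlin-3) and Apbb1ip (RIAM), which switch integrins to their active state, both differed by -0.34 (SE 0.11). Icam2, an endothelial ligand of these integrins, had a higher mean, by 0.18 (SE 0.08). Leaving out 1 array moved the list median between -0.20 (without phenolphthalein replicate 2) and -0.08 (without phenolphthalein replicate 1).

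Inhibitory genes had lower means too, in 12 of 13 tested genes with a median of -0.23. Ptpn6 (SHP-1), the phosphatase that ends Src-family and Syk signals, differed by -0.35 (SE 0.07), and the adaptor Dok3 by -0.43 (SE 0.13). Csk, the kinase that opposes CD45 at the regulatory tail, differed by -0.13 (SE 0.05), and the phosphatase Ptpn22 by -0.36 (SE 0.15). The limma adjusted p of these 4 genes lay between 0.433 and 0.569. The list median was -0.10 under normexp, -0.15 as the median of probes and without phenolphthalein replicate 1, and -0.37 without phenolphthalein replicate 2.

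Partners and targets of PU.1 had lower means in 9 of 13 tested genes, with a median of -0.05, close to that of all items. Runx1, a partner in blood cell development, differed by -0.36 (SE 0.11), and Spib, the closest relative of Spi1, by -0.71 (SE 0.26). The growth factor receptors Csf1r and Csf3r differed by -0.16 (SE 0.10) and -0.23 (SE 0.19). The median was -0.14 without vehicle replicate 1, -0.17 without phenolphthalein replicate 1 and -0.16 without a filter on dim probes. It was -0.10 with a filter on all 6 arrays.

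Relatives of Cd53 and Laptm5 had a median near 0 (-0.00075), whose sign turned under several settings, with 5 of 9 tested genes lower. The leukocyte tetraspanin Cd37 differed by -0.46 (SE 0.16). Tspan33 differed by -0.25 (SE 0.13), Cd82 by 0.12 (SE 0.07) and Laptm4b by 0.10 (SE 0.08).

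Cytoskeletal and surface genes of leukocytes had a median of -0.49, the lowest of the 7 lists with all arrays. Without phenolphthalein replicate 3 the order turned, with -0.42 here and -0.43 for the genes around Syk. Lower means were found in 10 of 12 tested genes (54.2% of all items), and 8 of 12 were lower at an unadjusted limma p under 0.05 (4.96% of all items). Plek (pleckstrin), a signalling protein of platelets and leukocytes, differed by -1.01 (SE 0.22) and the GTPase Rac2 by -0.72 (SE 0.16). The actin regulators Coro1a and Nckap1l differed by -0.64 (SE 0.13) and -0.50 (SE 0.12). These 4 genes, named for the smallest p of the list, had groups without overlap, with limma adjusted p between 0.433 and 0.458. Over the list 7 of 12 genes were lower and 0 higher without overlap (9.11% and 6.59% of all items).

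**Figure D4:**
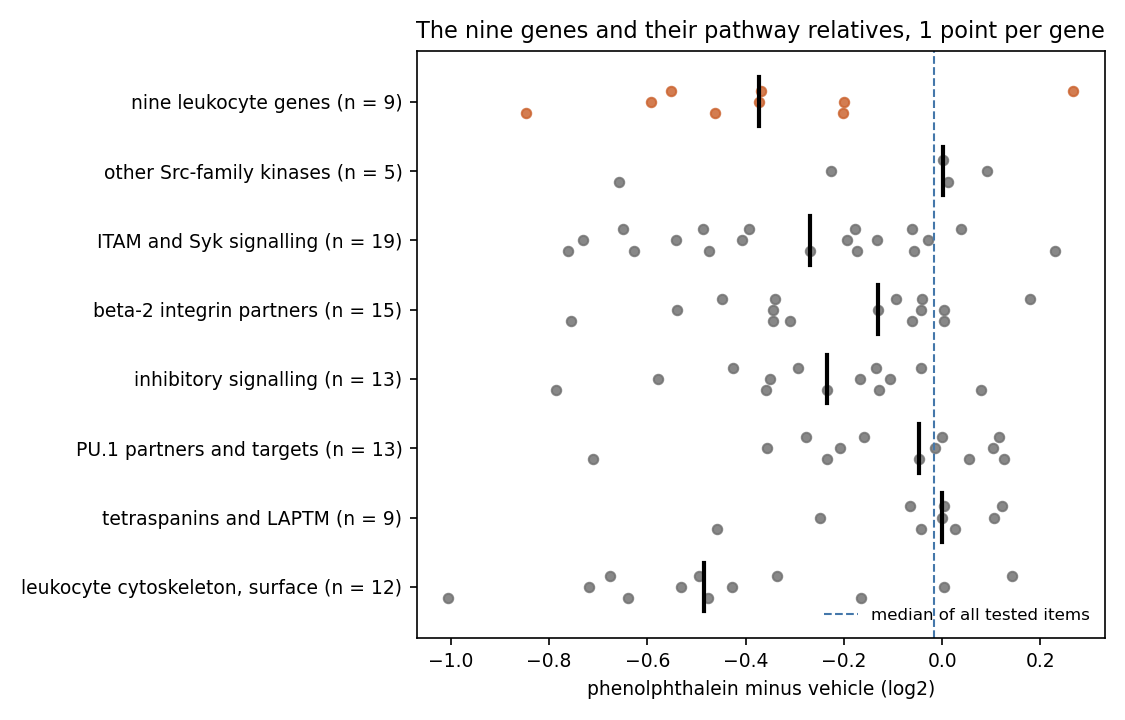
Difference between the groups (phenolphthalein minus vehicle, log2) for each of the 9 genes (orange) and each tested gene of the 7 pathway lists (grey), with the list median as a black bar and the median of all tested items, -0.02, as a dashed line. Medians run from -0.49 for cytoskeletal and surface genes of leukocytes to 0.0010 for the other Src-family kinases.

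The genes whose 6 array values followed the mean of the 9 genes most closely, out of 12211 candidates, were Oasl, Tent5a, Nubp1, Casp12 and Csf1r, with Pearson's r from 0.976 to 0.988. A value above 0.9 was reached by 1.03% of the candidates. These correlations rest on 6 arrays, include the difference between the groups and are given as a description. Csf1r, the receptor that keeps macrophages alive, read -1.16, -0.91 and -1.10 in vehicle and -1.15, -1.16 and -1.33 in phenolphthalein. Oasl, a gene of the interferon response, read -4.59, -3.81 and -4.58 in vehicle and -5.09, -5.03 and -5.65 in phenolphthalein. In both genes vehicle replicate 2 was the highest array and phenolphthalein replicate 3 the lowest, as in the mean of the 9. Both were picked for following that mean, so the shared order adds nothing to it. The ranking changed when Itgam was left out, as given below.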

How the data were processed

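Spot intensity was taken from the deposited scanner output of Agilent Feature Extraction. The software (10.7.1.1 per the file headers, 10.7 per the submitters' processing notes) subtracted background and removed spatial trends, and did not scale arrays to each other. The deposited value table holds a ratio on a linear scale, whose making is not given in the sources used here. Each of its columns, with medians of 0.102 to 0.106, equalled the intensity over the 75th percentile of 1 array of the same group (SD of the log2 difference at most 0.0072), though of another replicate number, so which rat a replicate number names within a group is uncertain. Numbers here follow the scanner files. The table served as an alternative.

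Each intensity was divided by the 75th percentile of its array and taken to log2. Outlier spots were set to missing, none of them in the 9 genes. Probes were named through RefSeq accessions with the GRCr8 gene table (27460 probes with 1 gene, 34197 with none). Probes were kept if 3 or more of the 6 arrays had them well above background, and the brightest stood for a gene. This left 34417 items, 12269 named genes and 22148 unnamed probes, so all 9 genes were tested. The comparison used limma 3.58.1 under R 4.3.3 (intensity trend, both directions, Benjamini-Hochberg over all items, threshold 0.05), a fit that was tested on simulated data. The number of arrays limits the precision.

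The members and lists were chosen with earlier results of these data known. Named are the 9 genes, up to 4 genes per pathway list with the smallest p, and the 5 genes most like the mean of the 9 (1 gene that the rule names is not reported here); other genes, among them cell-type markers, were named after their values were seen. Alternatives covered background correction, scaling, filters, probe choice, variance model, slide, replicate number and each array left out. Same-numbered rats did not deviate together (correlations of -0.0061, -0.015 and 0.025).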

Additional observations from a re-analysis of the deposited data

How the results depend on the processing

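The count of items passing the adjusted threshold was 0 higher and 0 lower under each alternative that kept all 6 arrays, the replicate block among them (0 and 0). Leaving out 1 array gave 0 to 1 higher and 0 to 1 lower, and 0 of the 9 genes passed in any of these fits. The median difference of the 9 genes was -0.37 with the replicate block and lay between -0.42 and -0.31 over the alternatives with all arrays and between -0.46 and -0.28 with 1 array left out. With the slide as a random block it was -0.37, though each slide held 1 group only. The count of genes with a lower mean was 8 to 9 and that of genes without overlap 4 to 6, each over all alternatives run. Of 152 differences of single genes under alternatives, 150 moved by less than the spread between rats. The 2 that moved further were those of Fgr (-0.67) and Spi1 (-0.30) with normexp, and 2, both of Itgam, changed sign. Of 119 list medians, 8 were counted as moved, 4 of PU.1 partners and targets, 3 of genes around Syk and 1 of Src-family kinases. Sign changes were seen in 11, all in the lists of Src-family kinases and of tetraspanins, and the cause was not tested. The planned normexp on mean signals was not run, since the scanner files used here give median signals. Normexp on those was chosen after seeing the data. Signal over background limits Itgam and the dimmest probes of Syk and Lyn.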

Other observations

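Expressed relative to Ptprc on the same array, a setting chosen after seeing the data, the remaining 8 genes did not share 1 pattern. Each gene was taken at its brightest probe. That of Ptprc had the lowest log2 difference of its 5 probes (-0.55, against -0.28 for the highest). The 2 tested Syk probes differed in sign, so the values below hold for the probes used. Fgr was still lower with phenolphthalein, at -2.65, -2.86 and -2.52 in vehicle and -3.04, -2.99 and -2.87 in phenolphthalein, without overlap and with a log2 difference of -0.30. Spi1 and Cd53 differed by -0.04 and 0.09 on that scale, with overlapping groups. Laptm5 was higher relative to Ptprc, at 2.84, 2.83 and 2.92 against 2.94, 3.07 and 3.13, and Syk likewise, at -2.92, -2.91 and -2.79 against -2.26, -2.69 and -2.61. Lyn, Itgb2 and Itgam differed by 0.35, 0.18 and 0.82, each with overlapping groups. A ratio within an array shows unequal change and not which gene differed, and none of these values was tested.

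The likeness ranking depended on Itgam. With Itgam left out, also chosen after seeing the data, the 5 closest genes were Slfn4, Rdh10, Sash3, Tap1 and Coro1a, with Pearson's r from 0.992 to 0.994 over 6 arrays, and 1.74% of candidates exceeded 0.9. None of these is among the 5 found with all 9 genes. Slfn4, a schlafen family gene, read -0.25, 0.64 and -0.34 in vehicle and -1.73, -1.03 and -1.53 in phenolphthalein. Sash3, an adaptor of lymphocytes, read -3.86, -3.44 and -3.98 in vehicle and -4.51, -4.23 and -4.44 in phenolphthalein.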
